A study of Mus musculus with 8 samples.

Results

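The genes described here encode 3 kinds of protein that cut, or protect, what lies outside the cell. They are the matrix metalloproteases Mmp8, Mmp9 and Mmp25, the membrane proteases Adam8, Adam9, Adam10, Adam15 and Adam17, and the tissue inhibitors Timp1 and Timp2. Members were taken as every probe set whose platform annotation gives 1 gene symbol equal to one of these 10 names. This gave 23 of the 45037 probe sets in the table and 9 of the 10 genes. No probe set carried Mmp25 as its 1 symbol, so that gene was not analysed here. Transcripts were measured in 32Dcl3 cells, a myeloid cell line from mouse bone marrow that proliferates in interleukin-3 (IL-3) and takes on neutrophil features in granulocyte colony-stimulating factor (G-CSF). All cells carried a retroviral vector: the mock culture held pMYs-IG, and the ASXL1-MT culture held pMYs-FLAG-ASXL1-MT-IG, which adds a FLAG-tagged mutant of the chromatin regulator ASXL1. Each culture was profiled in IL-3 (0 h of G-CSF) and after 2, 6 and 24 h in G-CSF, with 1 Affymetrix array for each of the 8 conditions.

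Matrix metalloproteases are zinc enzymes made as inactive precursors. Neutrophils store MMP8, a collagenase, in their specific granules and MMP9, a gelatinase, in their gelatinase granules, while MMP25 is held in the membrane by a lipid anchor. ADAM proteases are transmembrane relatives that mostly release the outer part of other surface proteins, a step called shedding: ADAM17 sheds tumour necrosis factor, L-selectin and the interleukin-6 receptor, and ADAM10 sheds Notch and many adhesion molecules. TIMP1 and TIMP2 are small secreted proteins that block the active site of matrix metalloproteases. Transcript levels say nothing direct about protease activity, since most of these proteins are controlled by removal of the prodomain, by release from granules and by inhibitors.

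All values below are centred levels: the deposited expression, taken to be on a log2 scale, after subtraction of each probe set's own 8-array median. A value of 1 therefore stands for 2-fold above that median, and values of different genes cannot be ranked against each other. The level before centring was estimated from the rounding of the values, which separates 3 classes best: under 4, from 4 to 8, and 8 or more. A figure within a class is rough, and so is the filter at 6.25 that decided which genes from 4 to 8 were tested. The class matters here because dim probe sets varied more between the cultures. The median absolute difference between ASXL1-MT and mock at the same time point was 0.12 at a level of 8 or more, 0.51 at 4 to 8 and 1.24 under 4. Of the 23 member probe sets 10 lay at 8 or more, all of them ADAM probe sets. Mmp8, Mmp9, Timp1 and Timp2 had none there. Of the 9 genes 7 were bright enough to test, and Mmp8 and Timp1 were not. Mmp9 reached the filter on its 2 24 h arrays only, so it was tested because it was high there, and its calls and the counts that hold it are a description. Timp2 reached the filter on no IL-3 array, so counts and medians that hold it are a description too. Precision is limited by the number of arrays. Every condition has 1 array only, and the labels do not say whether time points came from separate cultures. The p-values thus measure the spread between these arrays, which may be technical. In a bulk sample, fewer cells of a type and less RNA per cell cannot be told apart.

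Of the members, Adam8, Adam15 and Adam17 are shown with the 250 bases before their RefSeq start (GRCm38.p6). Adam8 and Adam15 rose at 24 h, and the 3 Adam17 probe sets all stood higher from 6 h on. The table used holds such an entry for 8 of the 10 members, with Mmp9 and Adam9 among those not listed. Capitals mark matches, on either strand, to 3 letter patterns: the C/EBP pattern TTGCNNAA, the ETS pattern GAGGAA and the GC box GGGCGG.
Adam8: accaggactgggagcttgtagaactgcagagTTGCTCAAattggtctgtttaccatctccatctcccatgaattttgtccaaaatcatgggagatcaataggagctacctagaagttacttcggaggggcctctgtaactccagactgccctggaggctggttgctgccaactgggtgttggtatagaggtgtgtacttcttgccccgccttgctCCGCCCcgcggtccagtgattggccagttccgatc
Adam15: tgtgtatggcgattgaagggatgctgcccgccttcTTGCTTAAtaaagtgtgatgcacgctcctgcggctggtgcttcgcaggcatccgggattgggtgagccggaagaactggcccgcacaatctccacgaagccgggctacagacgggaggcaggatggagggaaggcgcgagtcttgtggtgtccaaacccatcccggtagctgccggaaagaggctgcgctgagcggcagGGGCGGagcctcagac
Adam17: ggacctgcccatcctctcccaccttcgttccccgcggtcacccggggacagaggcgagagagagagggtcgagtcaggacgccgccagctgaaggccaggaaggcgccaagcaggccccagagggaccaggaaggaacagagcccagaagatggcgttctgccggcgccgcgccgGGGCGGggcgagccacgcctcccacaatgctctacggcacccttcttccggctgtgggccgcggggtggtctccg

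The Adam8 window (chr7:139992563-139992812, minus strand) lies inside the annotated span of the gene, before the start that the table lists. It holds 1 C/EBP match from -219 to -212 and 1 GC box from -35 to -30, counted back from that start. The Adam15 window (chr3:89350029-89350278, minus strand) holds a C/EBP match from -215 to -208 and, near the start, a GC box from -16 to -11. The Adam17 window (chr12:21373633-21373882, minus strand) is 70.4% G and C, against 52.8% for Adam8 and 62.0% for Adam15. It holds a GC box from -75 to -70 and no C/EBP match. Among 32851 such windows of the mouse genome, 9.56% hold the C/EBP pattern, 32.7% the GC box and 23.3% the ETS pattern. Mmp8 also has a C/EBP match, from -19 to -12. The windows shown hold no ETS match, but those of Mmp8 (-219 to -214) and Mmp25 (-13 to -8) do. GC boxes also lie in the windows of Adam10, Timp2, Mmp25 and Timp1. None of the 8 windows holds the STAT pattern TTCNNNGAA (7.02% of all windows) or the AP-1 pattern TGANTCA (6.75%). Such letters describe the windows and do not show that a factor binds.

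By 24 h in G-CSF 3 of the tested members had risen, and all 3 were ADAMs, as were 5 of the 7 tested. The other 2, Mmp9 and Timp2, were dimmer, with differences of 1.00 and 0.29 and standard errors of 0.46 and 0.74. Adam8 rose 4.01-fold, Adam9 1.54-fold and Adam15 1.46-fold. A false discovery rate of 0.05 over 12879 tested genes, with limma, decided each call. At 24 h against IL-3, 3 of 7 tested members rose and none fell, where 27.2% of all tested genes passed in either direction, 15.1% higher and 12.2% lower. Of these calls 55.4% were higher as deposited and 40.2% after quantile normalization, which left the rises of Adam8 and Adam9 in place. At 6 h the split went from 57.7% to 44.7% higher. The median log2 difference of the 7 tested members was 0.63, and 0.59 over the 6 other than Mmp9, against 0.089 for all tested genes. Among the 7592 genes at a level of 8 or more, a set chosen after seeing the data and by the median of all 8 arrays, all 5 ADAMs rose at 24 h, where 55.8% of genes passed and 28.8% were higher. At 6 h against IL-3 Adam8 alone of the 7 rose (17.7% of all tested genes passed, 10.2% higher and 7.48% lower). The median over the 7 was 0.32, and 0.83 over the 6 other than Mmp9, against 0.11 for all tested genes. Those 6 hold Timp2 (1.50 ± 0.74, not passed), which reached the filter on no IL-3 array. Their median falls in the wide gap between Adam9 (0.32) and Adam17 (1.34). At 2 h none of the 7 passed, and 0.00776% of all genes did. At an unadjusted p under 0.05, 1 of the 7 passed at 2 h, as did 8.23% of all tested genes. Without regard to a test, both 24 h arrays lay above both IL-3 arrays in 12 of the 23 member probe sets and in 9 of the 10 at a level of 8 or more. The share was 37.4% over tested genes and 40.6% over all probe sets at 8 or more. The comparisons with IL-3 use the same 2 IL-3 arrays. The calls at 24 h rested on every array compared: when any 1 of the 2 IL-3 and 2 24 h arrays was left out, none of the 12879 genes passed (3930 to 4140 at an unadjusted p under 0.05, limma).

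**Figure D1:**
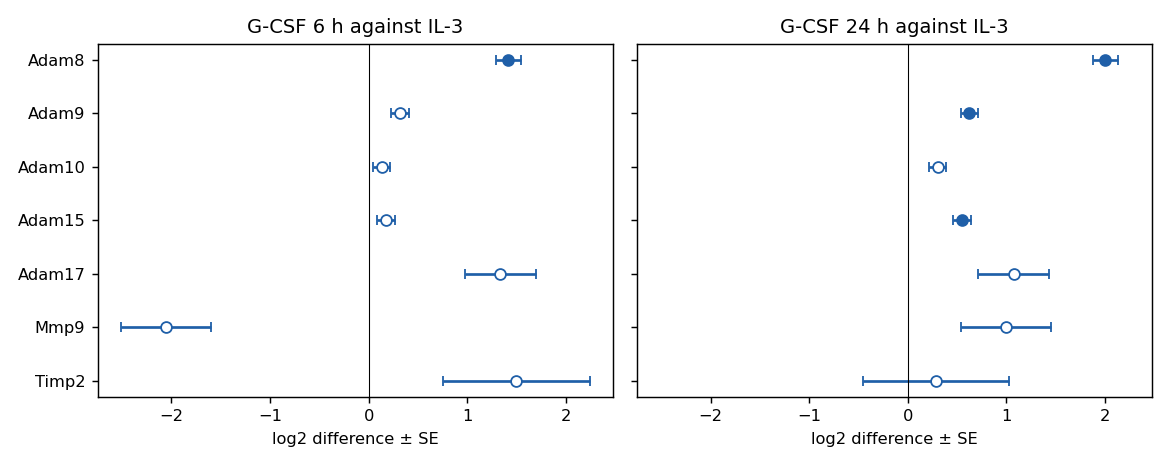
Log2 difference between G-CSF and IL-3 (x axis) for the 7 tested members, at 6 h (left) and 24 h (right). Points are the fitted differences over 2 arrays a side, bars are standard errors, and filled points passed the false discovery rate of 0.05. At 24 h Adam8, Adam9 and Adam15 are filled, and Mmp9 lies at -2.05 at 6 h and 1.00 at 24 h.

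Adam8 encodes a metalloprotease of granulocytes and macrophages that sheds adhesion molecules and that cells can bring to their surface from stores. The gene lies on chromosome 7 (139978932 to 139995207, GRCm38.p6) and was read by 1 probe set, 1416871_at. In the mock culture its centred level was -0.75 in IL-3, -0.68 at 2 h, 0.86 at 6 h and 1.39 at 24 h. In the ASXL1-MT culture it was -0.61, -0.84, 0.61 and 1.26 at the same points. The 4 arrays of 6 and 24 h lay above the 4 arrays of IL-3 and 2 h with no overlap, and the cultures were never further apart than 0.25. Adam8 rose by 1.42 ± 0.12 at 6 h (± is the standard error of the fit throughout; adjusted p = 0.012) and by 2.00 ± 0.12 at 24 h (adjusted p = 0.00569). The latter is 4.01-fold and placed Adam8 384th among 12879 genes ordered from the greatest rise. Between 2 and 6 h alone Adam8 rose by 1.49 ± 0.12 (adjusted p = 0.016), a comparison in which it was 1 of 7 members to pass and 15.9% of all genes did (9.6% higher, 6.3% lower; 60.4% of calls higher, 49.5% after quantile normalization). That step did not pass when any 1 of the 8 arrays was left out, or with no filter on dim genes (adjusted p = 0.0561). The 6 h rise against IL-3 did not pass when any 1 of the IL-3 or 6 h arrays was left out (1.26 to 1.58, highest adjusted p = 0.0956). At 2 h it differed from IL-3 by -0.075 ± 0.12 (adjusted p = 0.911). The step from 6 to 24 h, 0.59 ± 0.12, did not pass (adjusted p = 0.0722). The cultures gave rises at 24 h of 2.14 (mock) and 1.87 (ASXL1-MT).

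**Figure D2:**
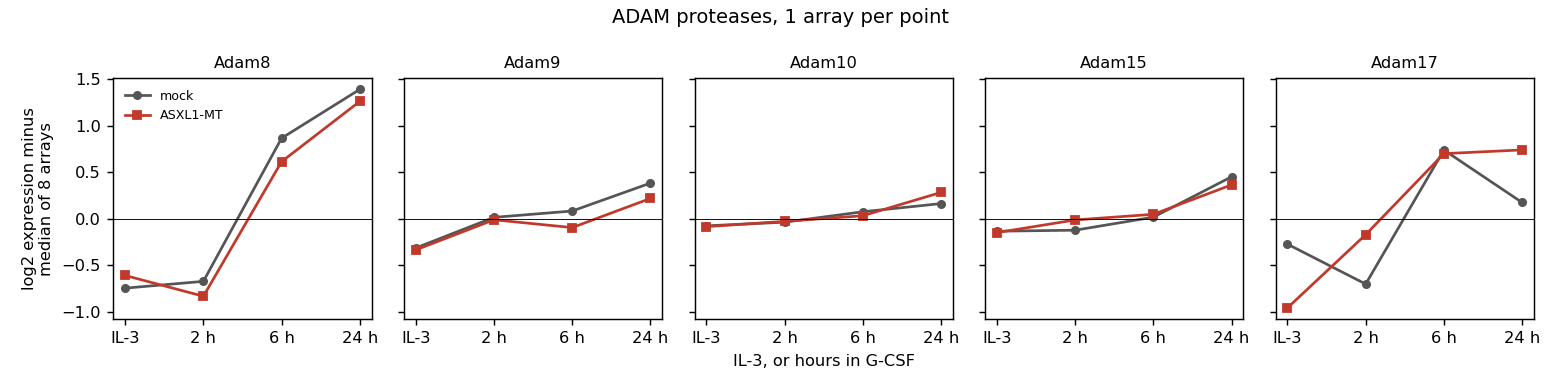
Centred level (log2, y axis) of the representative probe set of Adam8, Adam9, Adam10, Adam15 and Adam17 in IL-3 and at 2, 6 and 24 h in G-CSF (x axis, steps not to scale), with 1 array per point, grey for mock and red for ASXL1-MT. Adam8 spans -0.84 to 1.39, and Adam10 spans -0.087 to 0.28 on the same axis.

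Adam17 encodes the main sheddase of tumour necrosis factor, L-selectin and several cytokine receptors. It lies on chromosome 12 (21323509 to 21373632) and was read by 3 probe sets at a level of 8 or more. The representative, 1421857_at, gave -0.28, -0.70, 0.74 and 0.17 in the mock culture and -0.96, -0.17, 0.70 and 0.74 in the ASXL1-MT culture, in the order IL-3, 2, 6 and 24 h. Probe set 1421858_at gave -0.21, -0.25, 0.71 and 0.21 in mock cells and -0.49, -0.32, 0.71 and 0.63 in ASXL1-MT cells. For 1421859_at the values were -0.16, -0.31, 0.84 and 0.16 in mock cells and -0.29, -0.23, 0.47 and 0.63 in ASXL1-MT cells. In each of the 3 probe sets all arrays of 6 and 24 h lay above all arrays of IL-3 and 2 h. That separation was seen in 8 of the 23 member probe sets, where some genes enter with several. It was seen in 19.2% of all tested genes, each taken by its representative probe set. The share among all probe sets at a level of 8 or more was not counted.

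The fitted differences of Adam17 missed the threshold. The representative probe set differed from IL-3 by 1.34 ± 0.36 at 6 h (adjusted p = 0.0786) and by 1.07 ± 0.36 at 24 h (adjusted p = 0.102). Where every bright probe set was tested on its own, 1421858_at rose at 6 h by 1.06 ± 0.22 (adjusted p = 0.0449, and 0.134 over all 45037 probe sets), and 1421859_at differed by 0.88 ± 0.25 (adjusted p = 0.083). Standard errors of probe sets other than a gene's representative come from the fit of all 45037. At 24 h the mock array of every Adam17 probe set lay below its own 6 h array. The ASXL1-MT array was above mock at 24 h in 3 of 3 probe sets, by 0.56, 0.42 and 0.46. In IL-3 the ASXL1-MT array differed from mock by -0.685, -0.281 and -0.131 in the same order. Both gaps enter the 24 h difference from IL-3. It was 0.45 in mock and 1.70 in ASXL1-MT cells for the representative, 0.42 and 1.12 for 1421858_at, and 0.32 and 0.92 for 1421859_at. The 3 probe sets read the same RNA samples and are not replicates. The ASXL1-MT effect at 24 h exceeded that at the other time points by 0.63 ± 0.57, 0.54 ± 0.27 and 0.61 ± 0.31, and none passed (the representative had an adjusted p = 0.993 with limma).

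**Figure D3:**
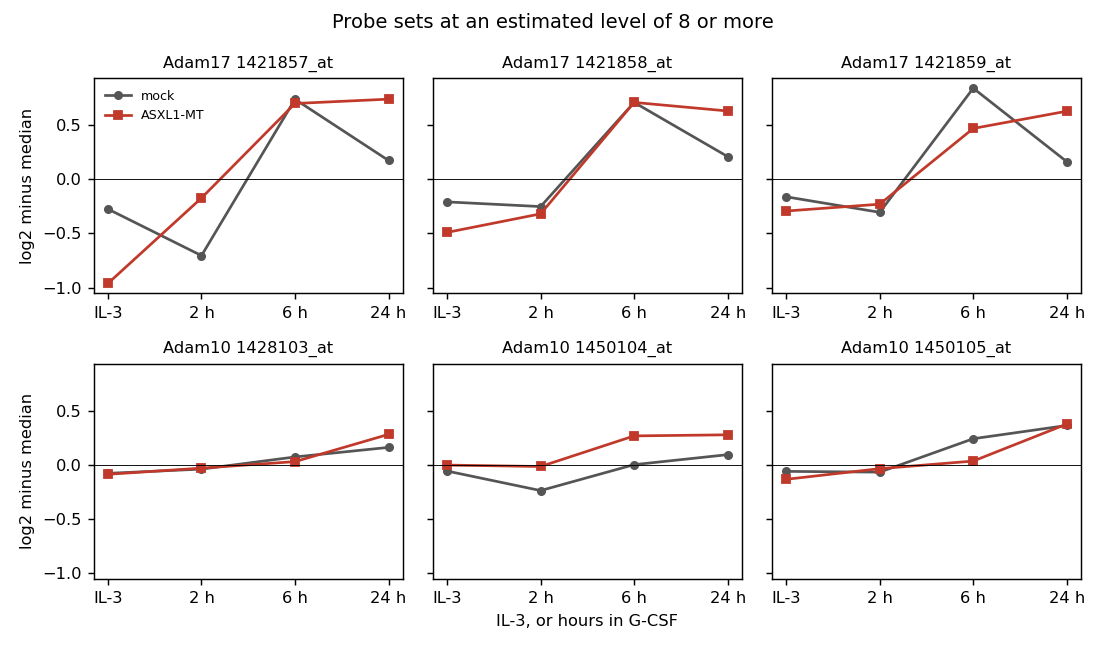
Centred level (log2, y axis) of the 3 bright probe sets each of Adam17 (top) and Adam10 (bottom) in IL-3 and at 2, 6 and 24 h in G-CSF (x axis, steps not to scale), with 1 array per point, grey for mock and red for ASXL1-MT. All 3 Adam17 probe sets stand higher at 6 and 24 h than before, and at 24 h the ASXL1-MT array is above mock by 0.42 to 0.56.

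Adam9 encodes a widely expressed protease with a disintegrin domain that can bind integrins. It lies on chromosome 8 (24949611 to 25017040), and 1 probe set, 1416094_at, gave -0.32, 0.013, 0.081 and 0.38 in the mock culture and -0.34, -0.013, -0.097 and 0.22 in the ASXL1-MT culture. Both IL-3 arrays were the lowest and both 24 h arrays the highest of the 8. Its difference from IL-3 was 0.33 ± 0.090 at 2 h, with 0.33 in mock and 0.32 in ASXL1-MT cells, at an unadjusted p of 0.0207 in limma (adjusted p = 0.557). At 6 h the difference was 0.32 ± 0.090 (adjusted p = 0.0862). By 24 h Adam9 rose by 0.63 ± 0.090 (adjusted p = 0.016), or 1.54-fold. With no filter on dim genes, more genes are tested and this adjusted p became 0.0519.

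Adam15 encodes another ADAM with a disintegrin domain. The gene lies on chromosome 3 (89339640 to 89350028), and 4 probe sets read it. The representative, 1416080_at, gave -0.14, -0.13, 0.015 and 0.45 in mock cells and -0.15, -0.015, 0.046 and 0.36 in ASXL1-MT cells. Both 24 h arrays were the highest, by a margin larger than any gap between the cultures. Adam15 rose at 24 h by 0.55 ± 0.089 (adjusted p = 0.0205), or 1.46-fold, with 0.59 in mock and 0.51 in ASXL1-MT cells. At 6 h the difference was 0.17 ± 0.089 (adjusted p = 0.256). The other probe sets did not all follow it. At 24 h 1425170_a_at differed by 0.65 ± 0.24, the cross-hybridising type 1438760_x_at by -0.034 ± 0.23 and 1454206_a_at by 0.049 ± 0.21, and none of these passed. The mean of the 4 probe sets differed by 0.30 (adjusted p = 0.0874), quantile normalization gave 0.37 (adjusted p = 0.0624), and no filter gave an adjusted p = 0.0636. Leaving out either 6 h array also ended the call (adjusted p = 0.0557).

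Adam10, the sheddase of Notch and of many adhesion molecules, was the steadiest of the ADAMs. It lies on chromosome 9 (70678944 to 70780229). The representative probe set, 1428103_at, gave -0.078, -0.039, 0.073 and 0.16 in mock cells and -0.087, -0.030, 0.030 and 0.28 in ASXL1-MT cells, a range of 0.37 over the 8 arrays. Probe set 1450104_at gave -0.057, -0.24, 0.002 and 0.094 in mock cells and -0.002, -0.015, 0.27 and 0.28 in ASXL1-MT cells. The values of 1450105_at were -0.060, -0.067, 0.24 and 0.36 in mock cells and -0.13, -0.035, 0.035 and 0.38 in ASXL1-MT cells. In all 3 the arrays of 6 and 24 h lay above those of IL-3 and 2 h. The differences at 24 h were small, 0.30 ± 0.085 for the representative gene value (adjusted p = 0.07), 0.22 ± 0.14 for 1450104_at and 0.47 ± 0.14 for 1450105_at (adjusted p = 0.0516 with every bright probe set tested). A further probe set, 1460083_at, lay at a level under 4, ranged over 3.83 and followed none of the others. Among the representative probe sets of the ADAMs the range over 8 arrays was 2.22 for Adam8, 1.70 for Adam17, 0.72 for Adam9, 0.60 for Adam15 and 0.37 for Adam10.

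Mmp9, the gelatinase of neutrophil tertiary granules, lies on chromosome 2 (164940326 to 164955850) and was read by 2 probe sets at a level from 4 to 8. The tested one, 1448291_at, gave -0.11, -0.51, -2.84 and 1.03 in mock cells and 0.57, 0.11, -0.80 and 1.43 in ASXL1-MT cells. In each culture the 6 h array was the lowest and the 24 h array the highest. Between 6 and 24 h Mmp9 differed by 3.05 ± 0.46 (adjusted p = 0.0436, limma), where 1 of 7 members passed and 6.65% of all tested genes did (3.56% higher, 3.1% lower). Only its 24 h arrays reached the filter, and with no filter the adjusted p was 0.113, so this call is given as a description and no fold is drawn from the dim 6 h arrays. Against IL-3 it differed by -2.05 ± 0.46 at 6 h (adjusted p = 0.0523) and by 1.00 ± 0.46 at 24 h (adjusted p = 0.189), and neither passed. The 6 h difference was -2.74 in mock and -1.37 in ASXL1-MT cells.

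The dimmer Mmp9 probe set, 1416298_at, gave -0.87, -2.83, -2.46 and 0.14 in mock cells and 0.29, 0.24, -0.14 and 0.79 in ASXL1-MT cells. Its lowest array was that of mock at 2 h, not 6 h, and its 24 h arrays were again the highest of each culture. The difference between 6 and 24 h did not pass when any 1 of the 8 arrays was left out (2.31 to 3.79), when the mean of both probe sets was used (2.41, adjusted p = 0.0876) or when every probe set was tested (adjusted p = 0.0648). At 24 h against IL-3 the dimmer probe set differed by 0.76 ± 0.68.

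Mmp8, the neutrophil collagenase, was too dim to test. It lies on chromosome 9 (7558429 to 7568486), and its 1 probe set, 1449366_at, had an estimated level of 3.97. The values were 0.30, 1.04, -0.45 and -2.60 in mock cells and -0.26, 0.26, -1.31 and 1.33 in ASXL1-MT cells. The lowest and the highest of the 8 arrays were both 24 h arrays, mock and ASXL1-MT respectively. Without a filter the mean difference at 24 h was -0.66 ± 1.44 (adjusted p = 0.829). The ASXL1-MT effect at 24 h exceeded that at the other time points by 4.67 ± 0.24 (adjusted p = 0.471, limma without a filter), and so did not pass. Between the cultures at 24 h, 53.7% of genes too dim to test differed by 1 or more. The Mmp8 gap there was larger, 3.93. Over all time points the upper decile of such gaps began at 3.28 for probe sets under a level of 4. The cause of the Mmp8 gap was not tested.

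Timp1, the inhibitor induced in many cells by cytokines, was also too dim to test. It lies on chromosome X (20870166 to 20874737), and 1460227_at gave 0.55, 0.60, -1.93 and 1.12 in mock cells and -1.69, -1.59, -0.55 and 0.72 in ASXL1-MT cells. The 24 h array was the highest of each culture, while the lowest was at 6 h in mock and in IL-3 in ASXL1-MT cells. Its mean difference at 24 h, without a filter, was 1.49 ± 1.06 (adjusted p = 0.458). Timp2, an inhibitor that also takes part in the activation of proMMP2, lies on chromosome 11 (118301061 to 118355411) and had 6 probe sets. The tested one, 1450040_at, gave -0.69, 1.16, 1.94 and -0.71 in mock cells and -0.49, 0.85, -0.11 and 0.11 in ASXL1-MT cells. The 2 h arrays were above IL-3 in both cultures, and the 6 h arrays were 2.05 apart. Timp2 differed from IL-3 by 1.59 ± 0.74 at 2 h (adjusted p = 0.678), 1.50 ± 0.74 at 6 h (adjusted p = 0.244) and 0.29 ± 0.74 at 24 h (adjusted p = 0.817). The other 5 Timp2 probe sets, at estimated levels of 1.95 to 4.9, ranged over 2.05 to 4.78 and shared no order of time points. At 24 h the mean of all 6 differed from IL-3 by -0.52 (adjusted p = 0.622), opposite in sign to the tested probe set.

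**Figure D4:**
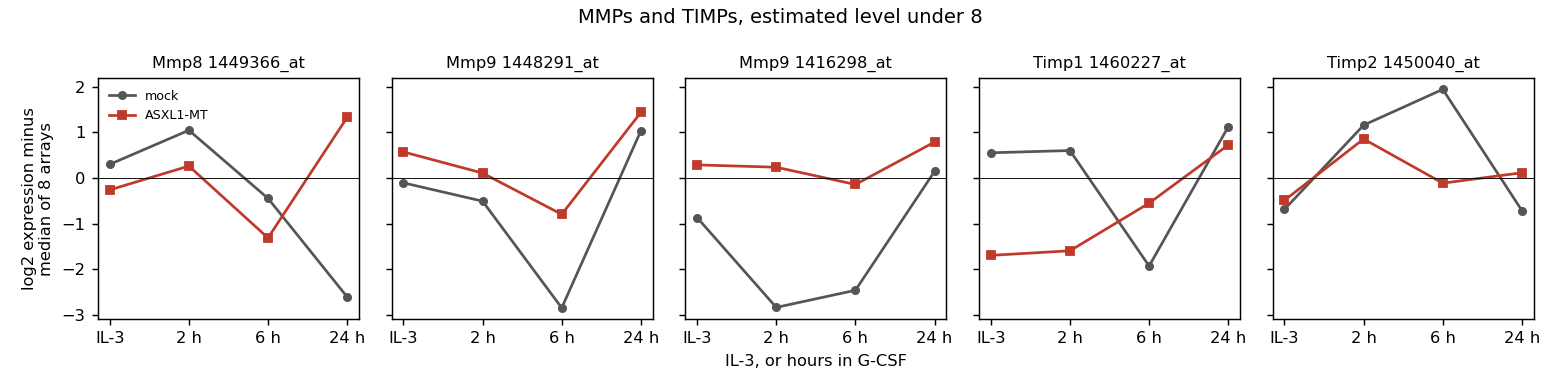
Centred level (log2, y axis) of Mmp8, both Mmp9 probe sets, Timp1 and the tested Timp2 probe set, all at estimated levels under 8, in IL-3 and at 2, 6 and 24 h in G-CSF (x axis, steps not to scale), with 1 array per point, grey for mock and red for ASXL1-MT. ASXL1-MT lies above mock at all 4 points of both Mmp9 probe sets, and the cultures cross in Mmp8, Timp1 and Timp2.

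The comparison of ASXL1-MT with mock over the 4 time points asks whether the mutant shifts these genes. None of the 7 tested members passed, nor did any of the 12879 genes (0.0% called, 845 at an unadjusted p under 0.05, smallest adjusted p = 0.234, limma). Adam8, Adam9, Adam10, Adam15 and Adam17 differed by -0.10 ± 0.088, -0.098 ± 0.064, 0.019 ± 0.060, 0.010 ± 0.063 and 0.093 ± 0.26. The Timp2 difference was -0.33 ± 0.53. For Mmp9 it was 0.94 ± 0.32, at an unadjusted p of 0.0417 (6.56% of all tested genes lay under 0.05) and an adjusted p = 0.753. The tested Mmp9 probe set was higher in ASXL1-MT by 0.68 in IL-3, 0.62 at 2 h, 2.05 at 6 h and 0.40 at 24 h, and the dimmer one by 1.15, 3.07, 2.32 and 0.64. Thus 8 of 8 differences had the same sign, although each pair of values at a time point comes from the same 2 arrays. The share of all genes with the same sign at all 4 time points was not counted. Both probe sets lay at a level from 4 to 8, where the median absolute difference between the cultures was 0.51. The tested one reached the filter at 24 h only, so this count of signs is a description and not evidence of a mutant effect.

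The effect of ASXL1-MT at 24 h against the other time points called none of the 7 and none of all genes (0.0%, 743 at an unadjusted p under 0.05, none of them a member, smallest adjusted p = 0.425, limma). At each time point alone there is 1 array a side and no test, so a difference of 1 or more was counted instead. In IL-3, at 2 h and at 24 h 0 of 7 members reached it, where 10.9%, 11.1% and 11.0% of tested genes did. At 6 h 2 did, Mmp9 (2.05) and Timp2 (-2.05), where the share was 11.0%. Of the 2 dim members, Timp1 reached it in IL-3 (-2.25), at 2 h (-2.19) and at 6 h (1.38), and Mmp8 at 24 h (3.93). Among all dim genes the shares were 52.8%, 54.2%, 55.4% and 53.7% at the 4 time points. The mouse Asxl1 probe sets differed between the cultures by -0.34, -0.043 and 0.68 on average. The labels do not say which sequence the vector carries, so these do not check the transgene.

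Of the genes that process or escort ADAM10 and ADAM17, Rhbdf2, Tspan14 and Furin rose at 24 h, a share near that of all tested genes. Both proteases lose their prodomain to furin-type convertases, and they leave the endoplasmic reticulum with iRhom proteins (ADAM17) or C8 tetraspanins (ADAM10). Of 16 genes listed for these steps 14 were tested, 3 rose and none fell at 24 h (15.1% of all tested genes rose and 12.2% fell), with a median of 0.28 against 0.089 for all genes. Rhbdf2, which encodes iRhom2, gave -0.37, -0.29, 0.76 and 0.76 in mock cells and -0.55, -0.81, 0.29 and 0.68 in ASXL1-MT cells. It rose by 1.18 ± 0.15 (adjusted p = 0.0125). Tspan14, a C8 tetraspanin, gave -0.24, -0.28, 0.49 and 1.32 in mock cells and -0.40, -0.17, 0.17 and 0.76 in ASXL1-MT cells. Its rise was 1.36 ± 0.19 (adjusted p = 0.0145). Furin, the convertase, gave -0.16, -0.29, 0.45 and 0.55 in mock cells and -0.35, -0.41, 0.16 and 0.37 in ASXL1-MT cells, and rose by 0.72 ± 0.086 (adjusted p = 0.0116). In all 3 the arrays of 6 and 24 h lay above those of IL-3 and 2 h, the order also seen in Adam8 and Adam17. At 6 h 3 of the 14 rose, where 10.2% of all tested genes did: Rhbdf2 by 0.99 ± 0.15, Furin by 0.56 ± 0.086 and Frmd8, an iRhom-binding protein named after its values were seen, by 0.64 ± 0.091. With no filter on dim genes, where 567 genes in all passed at 6 h, none of these 3 did (adjusted p of 0.0688, 0.0834 and 0.0732). Nor did any of the 3 at 6 h when any 1 of the 8 arrays was left out, and Furin also missed the threshold after quantile normalization (adjusted p = 0.0593).

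Other inhibitors of these proteases were listed beside the TIMPs. Of 9, 8 were tested and 2 rose at 24 h, where 15.1% of all tested genes did, with a median of -0.32 against 0.089. Reck, a membrane-anchored inhibitor of MMPs and ADAM10, gave -0.047, 0.27, -0.032 and 1.67 in mock cells and -0.081, 0.032, -0.25 and 1.38 in ASXL1-MT cells. Only its 24 h arrays stood apart from the rest. Reck rose by 1.59 ± 0.10 against IL-3 (adjusted p = 0.00569) and by 1.67 ± 0.10 against 6 h (adjusted p = 0.0245). The other was Cst3, which encodes cystatin C, an inhibitor of cysteine proteases and not of metalloproteases, at 1.14 ± 0.080 (adjusted p = 0.00624).

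**Figure D5:**
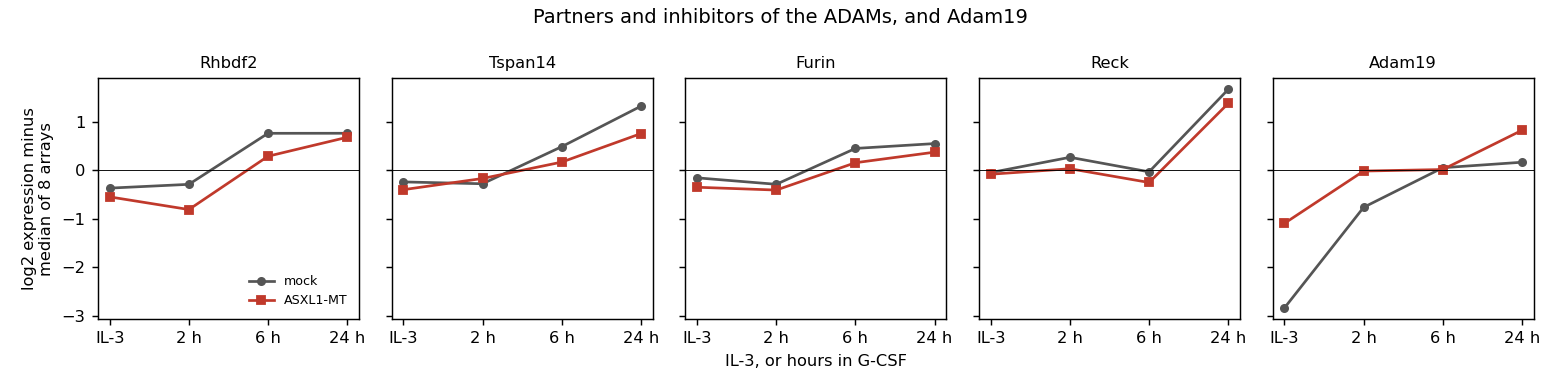
Centred level (log2, y axis) of Rhbdf2, Tspan14, Furin, Reck and Adam19 in IL-3 and at 2, 6 and 24 h in G-CSF (x axis, steps not to scale), with 1 array per point, grey for mock and red for ASXL1-MT. Rhbdf2, Tspan14 and Furin are higher from 6 h on, and Reck is higher at 24 h, at 1.67 and 1.38.

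Further members of the protease families were mostly dim. Of 18 other MMPs 14 were on the array, none at a level of 8 or more, 5 were tested and none passed at 24 h. Of 15 ADAMTS genes on the array 6 were tested, and none passed at 24 h. Of 13 other ADAMs 4 were tested and 1 rose, where 15.1% of all tested genes did: Adam19, which gave -2.84, -0.76, 0.053 and 0.17 in mock cells and -1.09, -0.016, 0.016 and 0.83 in ASXL1-MT cells. Its IL-3 arrays were the lowest of the 8 but lay 1.75 apart. Adam19, whose product sheds neuregulins, rose by 2.46 ± 0.45 at 24 h (adjusted p = 0.0256, limma). It reached the filter on G-CSF arrays only, so it was tested because it was high there, and this call is a description. With no filter on dim genes it did not pass (adjusted p = 0.0548), nor without either 2 h array.

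Of 30 surface proteins shed by ADAM10 or ADAM17, 28 were on the array and 20 were tested. At 24 h 7 rose and 1 fell, where 15.1% and 12.2% of all tested genes did, with a median of 0.52 against 0.089. The interleukin-6 receptor gene Il6ra, a substrate of ADAM17 and ADAM10, rose by 3.20 ± 0.54 (adjusted p = 0.0216, limma), but did not pass without either 2 h array. Its level was from 4 to 8, and its IL-3 arrays lay far apart, at -0.28 in mock and -2.99 in ASXL1-MT cells. Of the ASXL1-MT arrays only that of 24 h reached the filter for Il6ra. The M-CSF receptor gene Csf1r rose by 1.65 ± 0.078 (adjusted p = 0.00533), the tumour necrosis factor receptor gene Tnfrsf1a by 1.38 ± 0.099 (adjusted p = 0.00629) and Selplg, the P-selectin ligand, by 1.26 ± 0.081 (adjusted p = 0.00585). Tnfrsf1a, like Adam8, stood higher on all arrays of 6 and 24 h than on those before, with -0.51, -0.47, 0.69 and 0.78 in mock cells and -0.92, -0.89, 0.47 and 0.55 in ASXL1-MT cells. The 1 that fell, Axl, a receptor tyrosine kinase named after its value was seen, did so by 0.54 ± 0.091. The mean of all its probe sets differed by -0.019 (adjusted p = 0.981). At 6 h 2 of the 20 rose and 2 fell, near the 10.2% and 7.48% of all tested genes.

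The list of granule proteins and proMMP activators held 21 genes, of which 15 were tested. At 24 h 11 rose and 1 fell, where 15.1% and 12.2% of all tested genes did, with a median of 1.07 against 0.089. These lists were chosen with results of these samples known and are not independent evidence of a direction. Ngp rose by 4.95 ± 0.26, haptoglobin (Hp) by 4.92 ± 0.12, Lcn2, a lipocalin whose human form occurs in a complex with MMP9, by 4.33 ± 0.16 and lactoferrin (Ltf) by 3.01 ± 0.58 (adjusted p of 0.0055, 0.00472, 0.00507 and 0.0295). Beside them the granule enzyme Mmp9 differed by 1.00 ± 0.46 and the dim Mmp8 by -0.66 ± 1.44. Ltf did not pass with no filter on dim genes (adjusted p = 0.061) or when any 1 of the 8 arrays was left out. Among 13 tested matrix proteins that these enzymes cut, 1 rose and 1 fell, where 27.2% of all tested genes were called. Bcan, which encodes brevican, rose by 2.85, and Col4a2, a basement membrane collagen, differed by -1.26. Bcan reached the filter on G-CSF arrays only, so its call is a description. Neither gene passed without the filter (adjusted p of 0.0629 and 0.0606, limma) or without either 2 h array.

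Markers of cell types moved with the same comparison, in which 15.1% of all tested genes rose and 12.2% fell. The neutrophil markers share 10 genes with the granule list, and 9 of the rises below were already counted there. Of 15 neutrophil markers on the array 12 lay at a level of 8 or more, and all 14 tested rose at 24 h. Among them Cxcr2 was above the filter on G-CSF arrays only. The mean centred level of the list was -0.086 and -0.63 in IL-3 (mock and ASXL1-MT) and 1.64 and 1.51 at 24 h. Of 8 tested eosinophil, basophil and mast cell markers 6 rose, among them Prg2 (6.51 ± 0.47) and Prg3 (5.91 ± 0.45), both above the filter at 6 and 24 h only, and the mean of the list went from -0.95 and -0.33 to 1.32 and 1.86. Of 7 tested monocyte and macrophage markers 4 rose: Ccr2 (above the filter at 24 h only), Csf1r, Cd68 and Mrc1 (above it on G-CSF arrays only). The mean of that list was -0.29 and -0.16 in IL-3 and 0.72 and 0.29 at 24 h. Of 4 tested progenitor markers 2 rose (Csf2rb and Il3ra) and 1 fell (Gata2). The fibroblast markers, 4 tested, gave no call, and of 4 megakaryocyte and erythroid markers Itga2b rose and Klf1, under the filter at 24 h, fell. Centred values do not show which markers are absent. The part of cell types in the rise of Adam8, Adam9 and Adam15 was not tested.

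Genes with the most similar pattern were listed by Pearson correlation over the 8 arrays among tested genes, as a description. The arrays share time points and cultures, so many genes reach a high value. For Adam8 the 5 highest were Ampd2 (0.998), Clec4e (0.997), Cd300a (0.997), Kat2b (0.995) and Rnf144a (0.995), and 1141 genes reached 0.9. For Mmp9 they were Slc32a1 (0.969), Kcnq1ot1 (0.968), Pak2 (0.967), 4931406H21Rik (0.95) and 4930570E03Rik (0.947), with 21 genes at 0.9. For Mmp8, Cdc42ep4 (0.95), Ifi213 (0.94), Prelid2 (0.934), 9430021M05Rik (0.93) and Maz (0.93) led, with 14 at 0.9.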

How the data were processed

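Total RNA of 32Dcl3 cells was hybridized to Affymetrix mouse arrays, 1 per condition. The authors deposited 1 table of 8 columns, taken here as log2 values minus each probe set's median (the largest absolute row median was 5e-07). Scanner intensities came from MAS 5.0, per the labels, and RMA is named, with no version, in the submitters' processing notes. How the values were centred and scaled, and the log base, are not stated in the sources used here. Base 2 was assumed because RMA gives it. Array medians ran from -0.038 to 0.06.

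Levels before centring were estimated from the rounding step of the 32-bit values. The platform annotation gives 1 symbol for 34945 probe sets, more than 1 for 932 and none for 9160. Each of 18193 genes was represented by its probe set with the highest estimated level, ties going to the more specific type and then the first name. The 12879 genes whose second-highest array reached the table's median level of 6.25 were tested. The level estimate and these rules were chosen after seeing the data and depart from the planned use of uncentred values. limma 3.58.1 (R 4.3.3; lmFit, eBayes) fitted time point and vector additively, on 3 residual degrees of freedom (prior 1.18), two-sided, with Benjamini-Hochberg adjustment over all tested genes. An added term gave the ASXL1-MT effect at 24 h (2 residual degrees of freedom, prior 1.17). Each side held 2 arrays for a time contrast and 4 for the vector. The scripts were tested on simulated data. Alternatives were other filters, probe set rules, scalings, variance priors and subsets of arrays.

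The members, comparisons and gene lists were chosen with earlier results of these data known. Named genes are every member, up to 4 genes a list that passed at 24 h by size, and 5 most correlated genes for Adam8, Mmp9 and Mmp8. Others are said to be chosen after their values were seen. Gene positions, promoters and symbols come from RefSeq and the platform annotation.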

Additional observations from a re-analysis of the deposited data

Results flagged for a closer look

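Mmp8 and Timp1, both too dim to test, gave differences of opposite sign in the 2 cultures. The Mmp8 array at 24 h differed from IL-3 by -2.903 (log2) in mock cells and by 1.587 in ASXL1-MT cells. The test of whether the gap between the cultures was different at 24 h had an adjusted p = 0.471 (limma, no filter). The Timp1 array at 6 h stood at -2.478 from IL-3 in mock cells and at 1.144 in ASXL1-MT cells, a difference that was not tested. Each value compares 1 array with 1 array. At 6 h 55.4% of genes too dim to test differed by 1 or more between the cultures.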

How the results depend on the processing

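Of 777 member values under the alternatives, 670 kept their direction and their side of the threshold, 48 lost a call, 28 gained one and 31 turned sign with no call on either side. Most of the 777 belong to results uncalled in the main run, so the 670 say little about the calls. All 48 losses fall on the few called results, most of them in runs that left out 1 array. In the other runs Adam8 at 24 h passed in 8 of 9, Adam9 in 7 of 9 and Adam15 in 5 of 9. Mmp9 from 6 to 24 h passed in 3 of 7. A filter at a level of 8 or more (7592 genes), added after seeing the data, called the same members as the stricter filter. Members called at 6 h against IL-3 (1, Adam8) became 3 under the stricter filter (7714 genes) and under an intensity trend with a robust prior (Adam17 and Adam9 added), 2 with each array centred on its median or after quantile normalization (Mmp9 added, lower), and 0 with only the 4 arrays compared. At 24 h against IL-3 the 3 became 1 with no filter (Adam8), 2 with the mean of probe sets or quantile normalization (Adam15 lost), 5 under the stricter filter and under the trend (Adam10 and Adam17 added), and 0 with only the 4 arrays. Without either 6 h array Mmp9 gained a call there (1.001, adjusted p = 0.0351) and Adam15 lost its own. From 2 to 6 h the 1 became 2 under the stricter filter and the trend (Adam17 added), and 0 with no filter or only the 4 arrays. From 6 to 24 h the 1, Mmp9, became 0 with no filter, with the mean of all probe sets, with every probe set tested or with only the 4 arrays. It became 3 under the stricter filter (Adam8, Adam9 and Adam15; Mmp9 is not among the genes it keeps) and 4 under the trend. Leaving out 1 array gave 0 to 1 members at 6 h, 0 to 3 at 24 h and 0 in the last 2 comparisons. It cost all calls at 6 h or 24 h only where an array of the times compared was left out, and removing any array lowers the residual degrees of freedom. Adam8 at 24 h then spanned 1.85 to 2.16 (highest adjusted p = 0.0599).

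When a gene's probe sets were averaged the sign turned, uncalled, for Adam15 at 2 h (-0.095), Adam10 at 6 h against IL-3 (-0.129) and against 2 h (-0.136), Timp2 at 24 h (-0.515), ASXL1-MT against mock in Adam10 (-0.256), Adam15 (-0.113) and Timp2 (0.108), and the ASXL1-MT effect at 24 h in Adam10 (-0.683). The dim Adam10 and Timp2 probe sets enter that mean. Array centring gave -0.004 for Adam15 in ASXL1-MT and quantile normalization 0.011 for Adam8 in the 24 h effect, and the cause was not tested. Leaving out 1 array turned the sign within these ranges: Adam8 at 2 h -0.233 to 0.083, Adam17 at 2 h -0.34 to 0.698, Timp2 at 24 h -0.486 to 1.061, Adam9 from 2 to 6 h -0.061 to 0.046, Timp2 -1.238 to 1.055, and Adam17 from 6 to 24 h -0.577 to 0.052. For ASXL1-MT the ranges were -0.014 to 0.04 (Adam10), -0.023 to 0.042 (Adam15), -0.064 to 0.352 (Adam17), -0.719 to 0.241 (Timp2) and, for its 24 h effect in Adam8, -0.117 to 0.077. That effect could not be fitted without a 24 h array. No member passed at 2 h or for ASXL1-MT in any alternative run.

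Genes called in all at 24 h were 3507, 1772 with no filter, 6066 probe sets with each tested and 0 with only the 4 arrays (4161 at an unadjusted p under 0.05, limma). At 6 h they were 2277, 567 with no filter, 3498 under the stricter filter and 0 with the 4 arrays (3586 unadjusted). From 2 to 6 h they were 2049, 0 with no filter (4132 unadjusted), 1164 with the mean of probe sets, 3370 under the stricter filter, 3152 under the trend and 0 with the 4 arrays (2976 unadjusted). From 6 to 24 h they were 857, 0 with no filter (3362 unadjusted), 195 with the mean of probe sets, 226 probe sets, 346 after quantile normalization, 2499 under the stricter filter, 2259 under the trend and 0 with the 4 arrays (2326 unadjusted). At 2 h 1 gene passed, with 33 under the stricter filter and 11 under the trend. The filter at 8 or more gave 34 at 2 h, 3488 at 6 h, 4236 at 24 h, 3358 from 2 to 6 h and 2515 from 6 to 24 h. Quantile normalization moved the median of all genes at 24 h from 0.089 to -0.034, and Adam8, Adam9 and Adam15 remained above it at 1.72, 0.47 and 0.37. The labels number no replicates. The additive fit already compares time points within each culture and the cultures within each time point. A natural log instead of base 2 would enlarge every difference. The low level of Mmp8, Timp1 and most Timp2 probe sets limits what can be said of them.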
